A study of Homo sapiens with 6 samples.

Results

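The genes of the SR proteins, the heterogeneous nuclear ribonucleoproteins (hnRNPs), TRA2A, TRA2B and the polypyrimidine tract binding proteins PTBP1, PTBP2 and PTBP3 were examined in NB4 cells, an established line of acute promyelocytic leukemia. Members were the protein-coding genes whose symbol is SRSF with a number, starts with HNRNP, or is one of those 5 other symbols. The rule found 44 genes in the GENCODE 29 annotation, against 52992 annotated genes with a transcript in the tables, and left out pseudogenes with such symbols. Of the 44 genes, 41 had a transcript in the tables. SRSF8, HNRNPCL2 and HNRNPCL3 did not and were not analysed here. All cells stably expressed Cas9 and carried an sgRNA vector induced with 1 µg/ml doxycycline for 7 days, the control cells included. Per the methods of the study, RNA was taken after 2 more days of culture without doxycycline. The sgRNA targeted the bacterial gene lacZ in the LacZ group, whose genotype is labelled WT, and ARID1A, which encodes a SWI/SNF chromatin remodeling subunit, in the groups sg1 and sg5. Each group had 2 replicates. The methods of the study describe populations sorted for fluorescent markers of both vectors, so each library is a pool of cells and not a clone. In sg1 and sg5 such a pool can mix cells with different edits. No source says whether replicates came from separate cultures, and p-values then measure only the spread between these samples, which may be technical.

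SR proteins carry RNA recognition motifs and a domain rich in arginine and serine, and they commonly promote the use of exons that they bind. Many hnRNPs and the PTB proteins bind introns and exons and often repress splice sites, so that the balance between both families sets many alternative splicing choices. Both families are known to regulate their own messages. When an included poison exon brings an early stop codon, or an intron downstream of the normal stop is removed, the exon junction left behind the stop marks the RNA for nonsense-mediated decay (NMD). A retained intron often keeps an RNA in the nucleus. GENCODE sorts transcripts into classes, here protein_coding, retained_intron and nonsense_mediated_decay, and the share of a gene's counts on the last 2 classes was measured for each member.

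The leading NMD transcripts of the members were of 3 kinds. In the first, the stop codon lay in exon sequence found in none of the gene's protein_coding transcripts or only partly in them. The coding part of these exons is printed for 6 genes because it carries the early stop, which is in capitals. Sequences are from the GENCODE 29 transcripts, are written 5′ to 3′ in the sense of the gene, and have GRCh38 positions.

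SRSF3-203, exon 4, chr6:36599821-36599854, plus strand: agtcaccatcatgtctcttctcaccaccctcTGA
SRSF4-206, exon 4, chr1:29166009-29166064, minus strand: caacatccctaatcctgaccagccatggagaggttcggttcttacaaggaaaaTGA
SRSF6-202, exon 3, chr20:43459153-43459304, plus strand: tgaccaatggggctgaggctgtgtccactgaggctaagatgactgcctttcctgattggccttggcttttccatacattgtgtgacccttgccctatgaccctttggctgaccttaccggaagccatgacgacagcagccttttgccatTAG
SRSF7-204, exon 4, chr2:38749319-38749346, minus strand: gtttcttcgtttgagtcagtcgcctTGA
TRA2B-206, exon 2, chr3:185931772-185931852, minus strand: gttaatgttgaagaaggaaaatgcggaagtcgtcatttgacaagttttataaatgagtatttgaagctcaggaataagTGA
HNRNPLL-201, exon 6, chr2:38577956-38578002, minus strand: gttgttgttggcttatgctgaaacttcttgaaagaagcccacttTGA

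The exons that hold these stops are 456 bases long in SRSF3-203, 175 in SRSF4-206, 268 in SRSF6-202, 449 in SRSF7-204 and 83 in HNRNPLL-201, and none of their bases lies in a protein_coding transcript. In SRSF7-208, the leading NMD transcript of SRSF7, a longer exon of 1127 bases holds the stop, and 875 of them lie outside. In TRA2B-206 the exon has 276 bases, 177 of them outside protein_coding transcripts, and the same stop also closes a reading frame annotated as protein_coding. In the second kind, the stop codon is one that protein_coding transcripts use as well, and a further junction follows it. That junction lies 75 bases after the stop in HNRNPA1-205, 157 bases in HNRNPA2B1-203, 127 bases in HNRNPDL-202 and 105 bases in SRSF2-208. In the third, in HNRNPM-214 and HNRNPUL1-208, the stop lies in an exon that protein_coding transcripts also hold but read in another frame. HNRNPM-214, HNRNPUL1-208, HNRNPA2B1-203, HNRNPDL-202 and SRSF2-208 have 0 bases outside the protein_coding transcripts of their genes, and HNRNPA1-205 has 1. Estimated counts of such transcripts rest on the exon junctions and on how reads shared with coding transcripts were divided. The tables give no error for that division.

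The libraries held 46131178 to 54843745 estimated counts. Values of a group are given as a pair, with replicate 1 first. ARID1A itself stood at 29.6 and 35.1 TPM in the LacZ pair, 38.0 and 36.4 TPM in the sg1 pair, and 24.3 and 26.9 TPM in the sg5 pair. An edit can leave the amount of mRNA in place, so this level does not check the labels. For the protein, the study reports an immunoblot in which NB4 cells with an ARID1A sgRNA lost ARID1A after doxycycline. On the first principal component of all tested genes, which held 34.4% of the variance, sg1 replicate 1 lay at 34.3 and sg5 replicate 2 at 46.8, and the other 4 libraries lay between -30.3 and -11.3. No label separates these libraries. Of the promyelocyte markers, MPO, AZU1, PRTN3, CTSG and CD33 were expressed, whereas ELANE was listed near 0 in every library. The summed level of the erythroid, megakaryocyte and fibroblast markers stayed below 1 TPM in each library. CD3D, a T cell marker, was measured at 12.2 to 19.1 TPM and CD79A, a B cell marker, at 6.74 to 15.5 TPM. Both had all 4 ARID1A sgRNA libraries above both LacZ libraries, as did 6.49% of all tested genes. The adjusted p-values of CD3D and CD79A were 0.696 and 0.203 by edgeR for both sgRNAs joined against LacZ. The monocyte marker FCN1 was measured at 41.2 to 58.3 TPM. The summed level of the promyelocyte markers was 8139 and 9023 TPM in LacZ and 6816 to 8059 TPM in the other 4 libraries. Within that list the joined log2 fold change was -0.52 for CTSG (edgeR adjusted p = 0.265) and -0.35 for AZU1 (edgeR adjusted p = 0.349). The part of the marker genes in the results was not tested.

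The members ranged over several orders of abundance. Their summed level was 11564 and 12322 TPM in the LacZ pair, 12512 and 12136 TPM in the sg1 pair, and 12041 and 13478 TPM in the sg5 pair. TPM is scaled to transcript length, so levels can be compared between genes. The hnRNPs of the A/B and D subfamilies held the most, with sums of 4344 to 5141 TPM per library, and the SR proteins together held 2250 to 2701 TPM.

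HNRNPA1, a splicing repressor that binds exonic and intronic silencers, was the most abundant member, at 1831 and 1903 TPM in the LacZ pair, 1779 and 2009 TPM in the sg1 pair, and 2038 and 1894 TPM in the sg5 pair. Its close relative HNRNPA2B1 followed at 1235 and 1414 TPM in the LacZ pair, 1525 and 1341 TPM in the sg1 pair, and 1361 and 1725 TPM in the sg5 pair. In both genes the 3 groups overlapped. HNRNPD (AUF1), which binds AU-rich elements and affects mRNA turnover, was measured at 381 and 459 TPM in the LacZ pair, 447 and 400 TPM in the sg1 pair, and 403 and 437 TPM in the sg5 pair. Its paralog HNRNPDL was measured at 369 and 416 TPM in the LacZ pair, 404 and 450 TPM in the sg1 pair, and 402 and 426 TPM in the sg5 pair. For both, the LacZ replicates lay farther apart than the sg5 replicates.

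HNRNPH1, which binds runs of G, was measured at 924 and 1014 TPM in the LacZ pair, 810 and 1022 TPM in the sg1 pair, and 899 and 972 TPM in the sg5 pair, and most of this level lay on retained_intron transcripts (below). HNRNPH3 of the same subfamily was measured at 360 and 386 TPM in the LacZ pair, 389 and 367 TPM in the sg1 pair, and 397 and 463 TPM in the sg5 pair. The sg5 values lay above both LacZ values, and the sg1 values spanned the higher LacZ value. HNRNPC, which binds runs of U and guards against the use of cryptic exons, was measured at 852 and 794 TPM in the LacZ pair, 890 and 792 TPM in the sg1 pair, and 928 and 923 TPM in the sg5 pair. Here too sg5 lay above LacZ, while the sg1 values spanned those of LacZ.

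HNRNPK, which binds C-rich RNA, was measured at 466 and 459 TPM in the LacZ pair, 590 and 460 TPM in the sg1 pair, and 491 and 596 TPM in the sg5 pair. HNRNPM, a repressor that binds GU-rich RNA, was measured at 293 and 388 TPM in the LacZ pair, 403 and 336 TPM in the sg1 pair, and 299 and 410 TPM in the sg5 pair. SRSF2 (SC35), the most abundant SR protein gene, was measured at 349 and 368 TPM in the LacZ pair, 424 and 357 TPM in the sg1 pair, and 313 and 425 TPM in the sg5 pair. In these 3 genes the highest pair of values was that of sg1 replicate 1 and sg5 replicate 2, the libraries set apart by the first component. This pair was the highest of the 6 libraries in 14 of the 38 members that passed the filter on low counts, against 13.8% of the 18514 genes that passed it. The 14 were PTBP1, HNRNPM, HNRNPL, SRSF9, SRSF3, HNRNPA2B1, HNRNPR, SRSF1, SRSF2, HNRNPK, HNRNPF, HNRNPA3, HNRNPA0 and HNRNPAB. The pair was the lowest in 1 member, HNRNPUL1, against 21.5% of all genes.

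Among members of lower abundance, the PTB genes differed widely in level. PTBP1, which represses exons in most tissues, had a mean of 330 TPM over the 6 libraries, whereas PTBP3 had 18.7 TPM and PTBP2, the paralog best known from neurons, 17.8 TPM. TRA2B had a mean of 239 TPM and TRA2A 75.1 TPM. TRA2A varied most among members with a mean over 1 TPM, with a ratio of 1.98 between its highest and lowest library, and HNRNPUL1 varied least, with a ratio of 1.06. SRSF12 had a mean of 0.0849 TPM. HNRNPA1L2 and HNRNPCL1 were listed at 0 in all 6 libraries and HNRNPCL4 at 0 in 5 of them, and these 3 did not pass the filter. HNRNPA1P48 and the read-through gene HNRNPUL2-BSCL2 are members by symbol alone. They may share reads with HNRNPA1 and with HNRNPUL2, and their means of 5.15 and 36.7 TPM are uncertain for that reason.

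**Figure D1:**
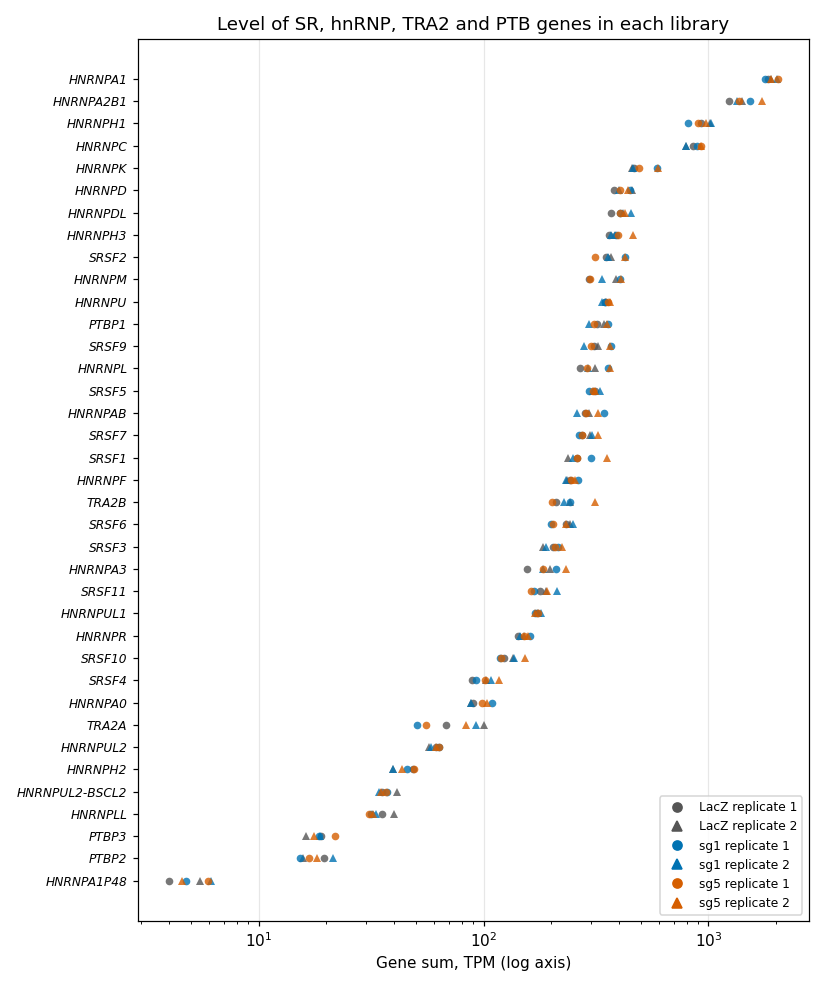
Level of each member with a mean of at least 1 TPM (37 genes), in TPM on a log axis, with 1 point per library, colored by group and shaped by replicate. The 6 points of a gene lie close together compared with the spread between genes, from 1909 TPM on average for HNRNPA1 to 5.15 TPM for HNRNPA1P48.

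Whether the ARID1A sgRNAs changed the level of these genes was tested on gene sums with the edgeR quasi-likelihood test, adjusted by the Benjamini-Hochberg method over all 18514 genes at a false discovery rate (FDR) of 0.1. No member was called in sg1 against LacZ (0 of 38, with 0.0378% of all genes called), in sg5 against LacZ (0 of 38, 0.0972%), in both sgRNAs joined against LacZ (0 of 38, 0.167%) or in sg1 against sg5 (0 of 38, 0.0054%). By edgeR, the count of members at an unadjusted p under 0.05 was 0 in each of the 4 comparisons, against 4.15%, 7.47%, 7.21% and 1.38% of all genes, and DESeq2 also called 0 members in each, against 0.742%, 1.35%, 1.81% and 0.027% of the genes that it gave an adjusted p. The median log2 fold change of the 38 members was 0.08 in sg1, 0.12 in sg5 and 0.10 in the joined comparison, beside medians over all genes of 0.00, -0.01 and -0.01. In bulk samples fewer cells that express a gene and less of its RNA per cell cannot be told apart. Estimates lay above 0 for 30, 33 and 32 of the 38, but the share of all genes above 0 was not counted. The members were measured in the same libraries, so their estimates are not independent of one another. The sg1 and sg5 comparisons share the LacZ libraries, so these counts are not independent of each other. Without sg1 replicate 1 and sg5 replicate 2 the joined median was 0.03, and without sg5 replicate 2 alone the sg5 median was -0.01.

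The members with the smallest p-values were led by HNRNPK and SRSF1. HNRNPK (chr9:83968083-83980616, GRCh38) had a log2 fold change of 0.29 ± 0.15 (SE) in the joined comparison, with a 95% interval of -0.05 to 0.64 and an adjusted p of 0.742 by edgeR. SRSF1 (chr17:58003360-58007346), which binds purine-rich exonic enhancers, was measured at 259 and 238 TPM in the LacZ pair, 300 and 249 TPM in the sg1 pair, and 261 and 355 TPM in the sg5 pair, and its joined log2 fold change was 0.27 ± 0.16 (SE). Each had 1 library of each sgRNA group close to LacZ. Without sg1 replicate 1 and sg5 replicate 2, the joined estimates were 0.09 for HNRNPK and 0.05 for SRSF1. These libraries were set apart by the first component of the same data and held the highest values of both genes. Smaller estimates without them follow from that and are no separate test. HNRNPA0, an A/B relative, had a joined log2 fold change of 0.20 ± 0.12 (SE). SRSF3, the smallest SR protein, had 0.17 ± 0.11 (SE) and HNRNPC had 0.16 ± 0.11 (SE). None of these intervals left out 0. Without those libraries the joined estimates of HNRNPA0, SRSF3 and HNRNPC were 0.08, 0.09 and 0.08.

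In sg5 alone the log2 fold changes of SRSF1, HNRNPK, SRSF3, HNRNPC and HNRNPH3 were 0.37, 0.34, 0.24, 0.23 and 0.21, and the smallest adjusted p of any member was 0.688 by edgeR. Without sg5 replicate 2 these estimates were 0.07, 0.16, 0.15, 0.20 and 0.10. In sg1 alone HNRNPK, HNRNPA0, HNRNPL and SRSF1 had 0.25, 0.18, 0.18 and 0.18, and the smallest adjusted p by edgeR was 0.993. Without sg1 replicate 1 they were 0.01, -0.01, 0.01 and 0.02. HNRNPLL, a paralog of HNRNPL known for skipping variable exons of CD45 in lymphocytes, had -0.13 in sg1. It was measured at 35.2 and 39.9 TPM in the LacZ pair, 31.7 and 33.4 TPM in the sg1 pair, and 30.8 and 32.3 TPM in the sg5 pair. It was the 1 member of 38 with all 4 ARID1A sgRNA libraries below both LacZ libraries in TPM, against 12.4% of all genes, and 0 members had all 4 above, against 6.49%. Between the sgRNAs, SRSF12, HNRNPH3, HNRNPC, SRSF3 and SRSF1 had log2 differences (sg1 minus sg5) of 0.97, -0.17, -0.15, -0.13 and -0.19, and each adjusted p was 1 by edgeR. Without sg5 replicate 2 they were 0.92, -0.06, -0.12, -0.05 and 0.11. The intervals had a median reach of 0.31 to each side in sg1 and in sg5, without adjustment for the number of genes tested. Changes of less than that size were not detectable for most members with 2 replicates, and larger ones could be missed as well. In simulated data for sg1 against LacZ, 72% of true log2 changes of 1 were called for gene sums at an FDR of 0.1. The lack of calls therefore does not exclude changes above 0.31.

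**Figure D2:**
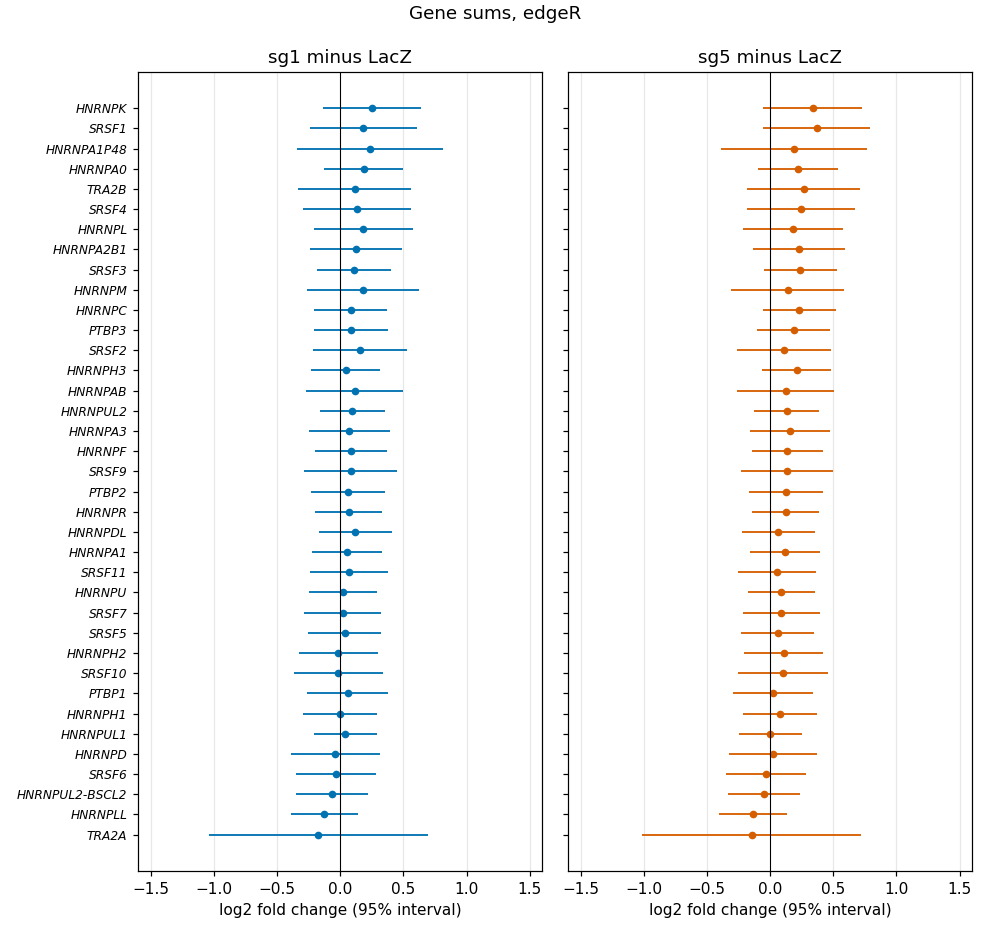
Log2 fold change of gene sums with 95% intervals from edgeR for 37 members (SRSF12, with a mean of 9.75 counts, is left out), for sg1 minus LacZ and sg5 minus LacZ, in the order of the joined estimate. Every interval crosses 0, and most points lie to the right of it, with medians over the 38 members of 0.08 and 0.12. The medians over all genes were 0.00 and -0.01.

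Retained_intron transcripts, 98 of the 428 member transcripts in the tables, made up very different parts of different genes. HNRNPH1 held the largest share: 64.5% and 67.2% of its counts in the LacZ pair, 53.2% and 69.0% in the sg1 pair, and 59.9% and 59.5% in the sg5 pair lay on its 16 retained_intron transcripts, led by HNRNPH1-223. The sg1 replicates were the lowest and the highest of the 6. SRSF5, which encodes an SR protein that binds exonic enhancers, had 53.6% and 48.9% in the LacZ pair, 43.5% and 46.5% in the sg1 pair, and 45.6% and 51.1% in the sg5 pair, mostly on SRSF5-212. Counts favor long transcripts, and the mean share of SRSF5 over the 6 libraries was 48.2% of counts but 28.9% of TPM.

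TRA2B, an activator that binds GAA-rich enhancers, had 28.3% and 30.5% in the LacZ pair, 23.7% and 29.03% in the sg1 pair, and 25.8% and 24.2% in the sg5 pair, with TRA2B-215 in the lead. Its paralog TRA2A had 20.3% and 23.6% in the LacZ pair, 17.3% and 22.5% in the sg1 pair, and 20.5% and 19.8% in the sg5 pair, nearly all on TRA2A-209. Both sg5 values of TRA2B lay below LacZ, whereas the sg1 values overlapped with both groups, and in TRA2A the groups overlapped. SRSF10, which represses splicing when dephosphorylated, varied little, from 20.2% to 23.8% over the 6 libraries, and 99.0% of the class lay on SRSF10-213. SRSF9 varied from 12.6% to 19.4%, with SRSF9-203 in the lead. Its lowest value was that of sg1 replicate 1 and its highest that of sg1 replicate 2, so that the sg1 pair spanned the other groups. HNRNPU, a nuclear scaffold protein, varied from 11.6% to 16.0% (HNRNPU-202 in the lead). PTBP1 had 11.5% and 12.3% in the LacZ pair, 10.3% and 11.2% in the sg1 pair, and 9.44% and 10.7% in the sg5 pair (PTBP1-210 in the lead), with both LacZ values above the other 4.

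The lowest retained_intron share of the 6 libraries was that of sg1 replicate 1 in 14 of the 23 members whose share could be tested, against 27.6% of all 5561 genes tested in this class. The other 15 tested members had mean shares of 0.174% (HNRNPUL1) to 9.29% (HNRNPL). All 4 ARID1A sgRNA libraries lay below both LacZ libraries in 2 of 23 members, PTBP1 and HNRNPUL1, against 7.43% of all genes, and above in 0 of 23, against 4.03%. By share of TPM, TRA2B and HNRNPU had all 4 below instead, again 2 of 23, against 7.95% of all genes.

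NMD transcripts, 48 in all, were led by SRSF6. Its poison exon transcript SRSF6-202 held 51.9% and 54.2% of the gene's counts in the LacZ pair, 50.6% and 52.7% in the sg1 pair, and 47.2% and 50.4% in the sg5 pair. Per length the share was larger still, 70.9% of TPM on average. SRSF7, an SR protein with a zinc knuckle, had 47.4% and 39.9% in the LacZ pair, 41.2% and 45.8% in the sg1 pair, and 42.0% and 42.9% in the sg5 pair, with 84.5% of the class on SRSF7-208. The LacZ replicates of SRSF7 were the highest and the lowest of the 6 libraries. SRSF3 had 14.6% and 17.7% in the LacZ pair, 17.2% and 15.8% in the sg1 pair, and 14.4% and 16.0% in the sg5 pair on SRSF3-203. As a share of TPM its mean was 42.8%, against 16.0% of counts.

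HNRNPA1 had 27.8% and 32.0% in the LacZ pair, 29.1% and 28.2% in the sg1 pair, and 30.9% and 28.0% in the sg5 pair, all on HNRNPA1-205, which differs from coding transcripts only at its junctions and 1 base. HNRNPDL had 25.6% and 28.8% in the LacZ pair, 30.5% and 28.1% in the sg1 pair, and 24.1% and 25.7% in the sg5 pair, led by HNRNPDL-202, whose length differs between the tables and GENCODE 29. In HNRNPA1 the groups overlapped. In HNRNPDL both sg1 values lay above those of sg5, and the LacZ values overlapped with both. TRA2B had 27.3% and 29.8% in the LacZ pair, 27.2% and 27.2% in the sg1 pair, and 27.3% and 25.6% in the sg5 pair on TRA2B-206. HNRNPUL1, a relative of HNRNPU, had 12.7% and 14.1% in the LacZ pair, 15.3% and 14.7% in the sg1 pair, and 13.3% and 12.6% in the sg5 pair, nearly all on HNRNPUL1-208. HNRNPUL2-BSCL2 consists of 1 NMD transcript, so its share is 100% by construction.

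SRSF2 was next, with 12.3% and 21.9% in the LacZ pair, 14.4% and 13.5% in the sg1 pair, and 7.61% and 7.74% in the sg5 pair, mostly on SRSF2-208. Both sg5 values lay below the other 4, and the LacZ replicates lay farther apart, in percentage points, than in the NMD share of any other member. HNRNPM had 7.98% and 6.24% in the LacZ pair, 4.37% and 5.79% in the sg1 pair, and 5.07% and 3.49% in the sg5 pair on HNRNPM-214, with both LacZ values above the rest. All 4 ARID1A sgRNA libraries lay below both LacZ libraries in 3 of the 24 members tested, PTBP1, HNRNPM and TRA2B, against 7.67% of all 3561 genes tested in this class, and above in 0 of 24, against 6.01%. By share of TPM it was 4 of 24, these 3 and SRSF4, against 7.39% of all genes. In TRA2B, LacZ replicate 1 and 3 of the sgRNA libraries all lay between 27.2% and 27.3%. The lowest NMD share was that of sg1 replicate 1 in 3 of 24 members, against 17.7% of all genes.

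**Figure D3:**
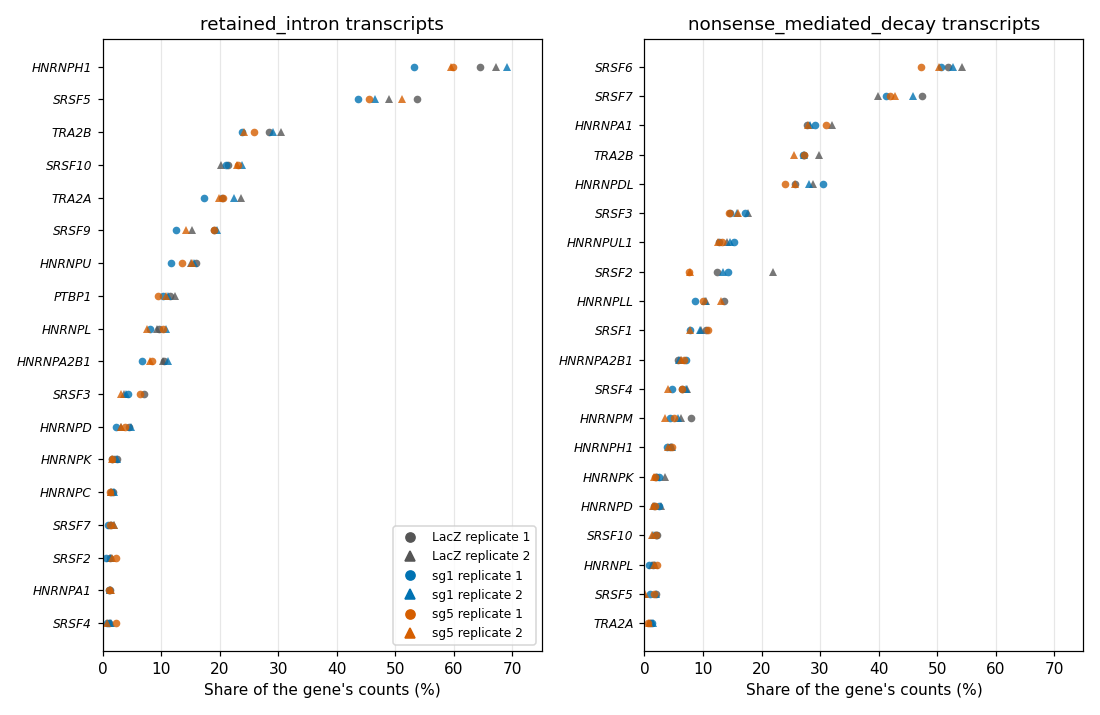
Share of each gene's counts on retained_intron transcripts (left, 18 genes) and nonsense_mediated_decay transcripts (right, 20 genes), in percent, for members with a mean share of at least 1%, at least 100 counts and without HNRNPUL2-BSCL2. Each point is 1 library, colored by group and shaped by replicate. The shares run from 62.2% on average for HNRNPH1 downward, and SRSF2 on the right shows the widest spread between LacZ replicates (12.3% and 21.9%).

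The class shares were compared between groups with limma on log2 ratios of the counts in the class to those in the rest of the gene, adjusted over the 9122 shares of both classes. No member share was called: 0 of 47 in sg1 (0.0329% of all shares called), 0 of 47 in sg5 (0.0439%), 0 of 47 in the joined comparison (0.011%) and 0 of 47 in sg1 against sg5 (0.0767%). At an unadjusted p under 0.05, limma gave 0, 3, 3 and 2 of the 47, against 2.61%, 4.31%, 3.57% and 3.46% of all shares. For the retained_intron class, 20 of 23 joined estimates lay below 0, with a median of -0.18 beside -0.08 over all genes. Without sg1 replicate 1 and sg5 replicate 2 that median was -0.05. For NMD, 19 of 24 lay below 0, with a median of -0.12 beside -0.06, and -0.10 without these libraries. As the medians over all genes were negative in both classes, most estimates of all genes lay below 0 as well. Their exact share was not counted, so these member counts do not set the splicing factors apart.

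The NMD share of SRSF2 (chr17:76734115-76737374) had the smallest p. Its log2 ratio was lower in sg5 than in LacZ by an estimated -1.26 ± 0.31 (SE), with a 95% interval of -2.01 to -0.51 (limma unadjusted p = 0.00596, adjusted p = 0.993). In the joined comparison the estimate was -0.78 ± 0.27 (SE), and in sg1 against sg5 it was 0.96 ± 0.31 (SE). LacZ replicate 2 set much of this size, since the joined estimate was -0.28 without it and -1.28 without LacZ replicate 1. The NMD share of HNRNPM (chr19:8444767-8489114) had a joined log2 ratio difference of -0.65 ± 0.23 (SE), with -0.52 in sg1 and -0.79 in sg5, and a joined adjusted p of 0.998 by limma. Without sg1 replicate 1 and sg5 replicate 2 it was -0.41. The retained_intron share of HNRNPUL1, which rests on a mean of only 35.8 counts, had -1.11 ± 0.46 (SE), and -1.51 without those libraries.

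The remaining shares with the smallest p-values had intervals that held 0, apart from the NMD share of TRA2A between the sgRNAs and the retained_intron share of HNRNPUL1 in sg5. In the joined comparison the retained_intron log2 ratios of TRA2B and SRSF5 both had a difference of -0.27. In sg1 the estimates were -0.36 for the retained_intron share of SRSF5, -0.76 for that of HNRNPUL1, -0.37 for the NMD share of HNRNPLL and 0.19 for that of HNRNPUL1. In sg5 the NMD shares of HNRNPK and PTBP1 had -0.61 and -0.50, and the retained_intron share of HNRNPUL1 had -1.45. Between the sgRNAs (sg1 minus sg5), the NMD shares of TRA2A and HNRNPDL had 1.00 and 0.32, and the retained_intron shares of SRSF2 and HNRNPC had -1.09 and 0.41. The smallest adjusted p by limma was 0.999 in sg1 and 1.00 in sg1 against sg5.

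**Figure D4:**
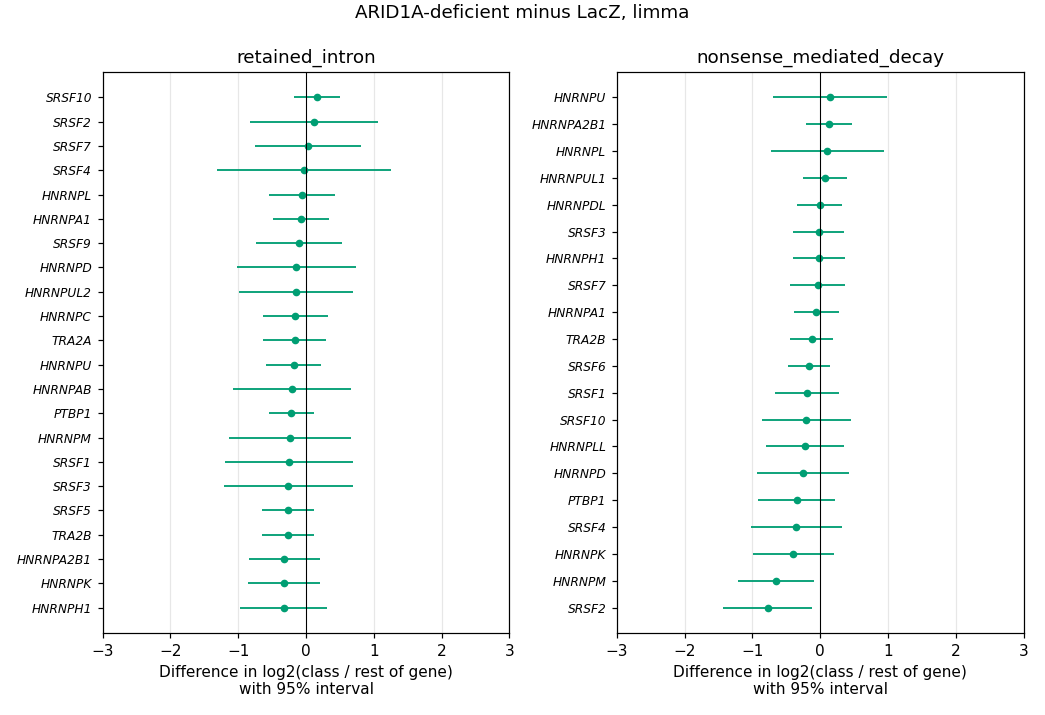
Difference of the ARID1A sgRNA groups joined minus LacZ in the log2 ratio of class counts to the rest of the gene, with 95% limma intervals, for the member shares with at least 50 counts in the class, without the NMD share of SRSF5, whose interval (-4.74 to 8.96) exceeds the axis. The intervals of SRSF2 and HNRNPM on the right lie below 0 before adjustment, and the other intervals cross it.

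Summed over all members but HNRNPUL2-BSCL2, retained_intron transcripts held 9.32% and 9.09% of counts in the LacZ pair, 6.76% and 9.60% in the sg1 pair, and 8.06% and 8.14% in the sg5 pair. Over all other protein-coding genes the share was 5.57% and 5.61% in the LacZ pair, 4.83% and 5.77% in the sg1 pair, and 5.08% and 5.10% in the sg5 pair. The libraries took the same order in both sums, apart from LacZ, whose replicates traded places, so that a low share in sg1 replicate 1 was also seen outside the splicing factors. NMD transcripts of the members held 9.61% and 10.7% in the LacZ pair, 9.31% and 10.2% in the sg1 pair, and 9.63% and 8.79% in the sg5 pair. Over all other protein-coding genes they held 2.65% to 2.89%. In every library the splicing factor genes thus had a larger NMD share than the other genes summed, which is a description of these sums and depends on the few abundant genes in them.

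**Figure D5:**
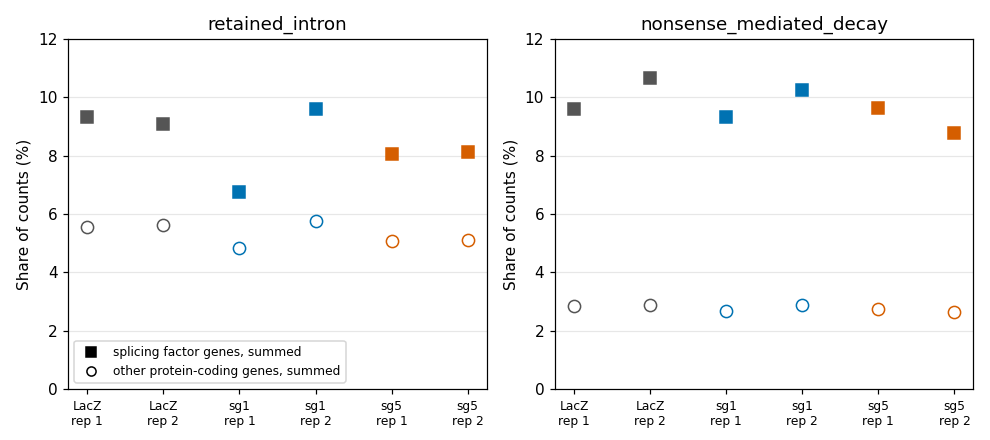
Share of counts on retained_intron (left) and nonsense_mediated_decay (right) transcripts in each library, in percent, summed over the splicing factor genes (filled squares, without HNRNPUL2-BSCL2) and over all other protein-coding genes (open circles). The squares lie above the circles in all 6 libraries, and both reach their lowest retained_intron value in sg1 replicate 1 (6.76% and 4.83%).

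At the level of single transcripts, 350 transcripts of the members were tested by edgeR among 78622. None was called in sg1, sg5, the joined comparison or sg1 against sg5 (0 of 350 each, with 0% of all transcripts called), and 10, 28, 20 and 11 had an unadjusted p under 0.05, against 3.02%, 4.71%, 4.32% and 2.87% of all transcripts. DESeq2 on the same counts called 2, 8, 6 and 3 of the 336 with an adjusted p, against 0.579%, 1.15%, 0.956% and 0.582% of the 74049 transcripts with one. The smallest p in 3 comparisons was that of HNRNPH1-239, a protein_coding transcript with 28.2 and 27.9 counts in the LacZ pair, 144 and 72.6 in the sg1 pair, and 135 and 148 in the sg5 pair. All 4 sgRNA values lay above LacZ, and the joined log2 fold change was 2.24 ± 0.36 (SE) with an adjusted p of 0.745 by edgeR. DESeq2 called it in sg1, in sg5 and in the joined comparison. It holds a small part of HNRNPH1, whose gene sum had a mean of 40279 counts. The transcripts named here and below were chosen mainly for small p-values, so separation between their groups follows in part from that choice. The share of all transcripts separated in this way was not counted.

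HNRNPM-214, the NMD transcript described above, had 1753 and 1652 counts in the LacZ pair, 1315 and 1213 in the sg1 pair, and 1027 and 1067 in the sg5 pair, and a joined log2 fold change of -0.46 ± 0.10 (SE). The 3 groups did not overlap. HNRNPM-207, a processed_transcript, had 568 and 1753 counts in the LacZ pair, 785 and 499 in the sg1 pair, and 60.3 and 142 in the sg5 pair. DESeq2 called both HNRNPM transcripts in sg5 and in the joined comparison. PTBP1-214, a protein_coding transcript, had 75.3 and 94.3 counts in the LacZ pair, 109 and 61.7 in the sg1 pair, and 271 and 425 in the sg5 pair. Its log2 difference of sg1 minus sg5 had a 95% interval of -2.91 to -1.09 and an adjusted p of 0.926 by edgeR, and DESeq2 called it there and in sg5. HNRNPD-207, another protein_coding transcript, had 462 and 266 counts in the LacZ pair, 715 and 507 in the sg1 pair, and 125 and 45.4 in the sg5 pair. For HNRNPM-207 and HNRNPD-207 the sg5 libraries were the lowest, and for PTBP1-214 the highest, but each was named for a small p-value in sg1 against sg5.

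SRSF2-208, the NMD transcript of SRSF2, had 2951 and 5020 counts in the LacZ pair, 4227 and 2771 in the sg1 pair, and 1371 and 2194 in the sg5 pair. SRSF2-205 had 68.4 and 87.6 counts in the LacZ pair, 131 and 71.2 in the sg1 pair, and 29.1 and 37.9 in the sg5 pair. SRSF2-211, a retained_intron transcript, was listed at 0 in LacZ and sg1 and at 34.6 and 64.9 counts in sg5. These 3 of the 11 SRSF2 transcripts had both sg5 libraries at one end of their range. SRSF2-205 and SRSF2-211 were named for small p-values in sg1 against sg5, so for them this follows from the choice. HNRNPL-207, a retained_intron transcript, had 167 and 202 counts in the LacZ pair, 352 and 233 in the sg1 pair, and 297 and 324 in the sg5 pair. HNRNPDL-202 had 3092 and 3345 counts in the LacZ pair, 4517 and 3902 in the sg1 pair, and 3409 and 4818 in the sg5 pair. Both had all 4 sgRNA values above LacZ. SRSF5-219 was listed at 0 in LacZ and at 7.53 to 79.3 counts in the other 4 libraries, and HNRNPH1-212 had 36.0 and 121 counts in LacZ and 0 to 18.0 in the others. Neither value of such a transcript says whether reads were absent or were given to a transcript that shares them.

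The genes around these factors were described from lists chosen with earlier results known, by the same edgeR fit. None was called in any of the 4 comparisons: 0 of 9 SR protein kinases and import factors, 0 of 12 hnRNP relatives outside the symbol rule, 0 of 15 NMD and exon junction genes and 0 of 35 core spliceosome genes. Of all genes, only 0.0378% were called in sg1, 0.0972% in sg5, 0.167% in the joined comparison and 0.0054% in sg1 against sg5. The joined median log2 fold changes of these lists were 0.02, 0.09, 0.11 and 0.11, beside -0.01 over all genes and 0.10 for the members. Without sg1 replicate 1 and sg5 replicate 2 these list medians were 0.02, 0.06, 0.01 and 0.03. Among the kinases, PRPF4B had a joined log2 fold change of 0.22 and SRPK2 0.14 (0.09 and 0.14 without those libraries). Among the relatives, the nuclear matrix protein gene MATR3 had 0.32 and SYNCRIP 0.22 (0.18 and 0.09 without them). In the NMD list, MAGOH of the exon junction complex had 0.27 and UPF2 0.30 (0.20 and 0.17 without them). In the spliceosome list the Sm protein genes SNRPE and SNRPG had 0.29 and 0.45, and SNRPE had 0.17 without those libraries. SNRPG was measured at 198 and 210 TPM in the LacZ pair, 296 and 214 TPM in the sg1 pair, and 222 and 333 TPM in the sg5 pair, so that sg1 replicate 1 and sg5 replicate 2 were again the highest, and without them its joined estimate was 0.14. The 6 stress and damage genes, also with 0 calls, had a joined median of -0.54, with -0.92 for DDIT3 and -0.67 for GADD45A. Without sg1 replicate 1 and sg5 replicate 2 these values were -0.33, -0.62 and -0.48. DDIT3 had the smallest adjusted p of the genes named from these lists, 0.497 by edgeR in the joined comparison. The summed level of the 6 genes was 459 and 513 TPM in LacZ and 374 to 401 TPM in the other 4 libraries, and its part in the results above was not tested.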

How the data were processed

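The deposited tables, 1 per library, held estimated counts and TPM for 196354 transcripts. Per the labels, the authors used kallisto and DESeq2 with hg19. The study names a kallisto version only for mouse reads, and the human transcript set is not given in the sources used here. Transcripts were matched by identifier to GENCODE 29 (GRCh38), which gave gene, class and exon structure for 181857 (92.6%), of which 93.2% had the same length. They held 95.4% to 95.5% of the counts per library. Deposited TPM values were summed per gene without change. Estimated counts were summed per gene and per class and rounded.

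Gene sums and single transcripts were tested with edgeR 4.0.16 in R 4.3.3 (quasi-likelihood test, TMM, filterByExpr with a minimum count of 10, robust), with all 6 libraries and group as the only term. Class shares with a mean of at least 10 counts in the class and in the rest were tested with limma 3.58.1 (trend and robust) on log2 ratios with an offset of 0.5 counts. Adjustment was by Benjamini-Hochberg, and an FDR of 0.1, the threshold of the study, made a call. Intervals are 95% intervals from these fits. DESeq2 1.42.0 was an alternative, and others are listed with their effect after the report. The scripts for edgeR and limma were tested on simulated data with 200 changed features in sg1 against LacZ. Of true log2 changes of 1, 72% were called for gene sums and 55% for class shares, and of changes of 2, 97% for each. Of the calls made, 15.5% for gene sums and 15.6% for class shares were false, above the nominal FDR of 0.1. Joins and plots used Python 3.11.15.

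Values were named for the 10 most abundant members and those at 0, the 8 members with the highest mean share of each class among genes with at least 100 counts, and the 5 members with the smallest p per comparison and test. For the pathway lists, the 2 genes with the smallest joined p were named. Other members were named after their values were seen, where a count of 5 or fewer or a range needed them. The members and all lists were chosen with earlier results of these data known.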

Additional observations from a re-analysis of the deposited data

Results flagged for a closer look

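Values of the 4 ARID1A sgRNA libraries were screened with Dixon's test for a single library far from the others, over 85 gene sums and class shares, where chance marks about 1 in 20. Gaps were measured on the log2 scale, for shares on the log2 ratio of the class to the rest of the gene. It marked 2. The NMD share of TRA2B was 25.6% in sg5 replicate 2, against 27.2% to 27.3% in the other 3 libraries, with a gap of 0.951 of the range on that scale. The retained_intron share of HNRNPK was 2.41% in sg1 replicate 2, against 1.59% to 1.67% in the other 3, with a gap of 0.886 of the range on that scale. The LacZ values were 27.3% and 29.8% for TRA2B and 2.45% and 2.03% for HNRNPK.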

How the results depend on the processing

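The count of members called stayed at 0 in gene sums and class shares for all 4 comparisons under every alternative run (other scaling, filters, units, offsets, denominators, tools, leaving out each library, and, chosen after seeing the data, transcripts of unchanged length only). The exception was DESeq2 on single transcripts, with 2 calls in sg1, 8 in sg5, 6 in the joined comparison and 3 in sg1 against sg5, of the 336 with an adjusted p, where edgeR called 0. DESeq2 called 0.579%, 1.15%, 0.956% and 0.582% of all transcripts in these comparisons. The cause was not tested. Leaving out 1 library at a time, the log2 fold change of HNRNPA0 in sg1 ranged from -0.0082 (without sg1 replicate 1) to 0.36, and that of SRSF1 in sg1 minus sg5 from -0.45 to 0.11 (without sg5 replicate 2). The median log2 fold change of the members was -0.01 in sg5 and 0.08 in sg1 minus sg5 without sg5 replicate 2, and the median retained_intron ratio change in sg1 was 0.12 without sg1 replicate 1.

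Same-numbered samples had deviations that correlated at 0.072 (LacZ and sg1), 0.012 (LacZ and sg5) and -0.21 (sg1 and sg5) over 18514 genes, so the numbers were not taken as pairs. With the replicate number as a block, and with crossed pairs of sg1 and sg5, the members called were 0 in each test and comparison run. Groups of 2 replicates limit what could be detected, and shares resting on few counts, such as the retained_intron share of HNRNPUL1 (mean 35.8 counts), are also limited by depth.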
